A study of Mus musculus with 18 samples.

Results

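Ectopic endometrial lesions of the control genotype, PRCre, were compared with the uterus of the same genotype across all measured genes. The comparison used 6 of the 18 arrays of the series, 3 of lesions and 3 of uterus, chosen by their titles alone. PRCre/+ mice carry Cre recombinase in the progesterone receptor gene and served as controls for ERBOE mice, which are described as overexpressing oestrogen receptor beta. To make a lesion, a 2 mm punch of PRCre/+ endometrium was implanted in an intact wild-type C57BL/6J female of 8 weeks. Lesions were collected at estrus in week 4, so the tissue held donor cells and whatever wild-type host cells had entered it. Uterus came at estrus from unoperated PRCre/+ mice of 12 weeks. The uterine samples are given as whole uteri, muscle wall included, whereas the implant was described as an endometrial fragment. Each array carried RNA pooled from 3 animals, 9 animals per group, so the p-values measure the spread between pools. Of the other groups, ERBOE lesions (in wild-type hosts) and ERBOE uterus were made in the same way and share no array with this comparison. PRCre eutopic endometrium was taken from PRCre/+ animals whose implant had come from wild-type donors. The source field of the ERBOE lesion samples says without endometriosis, against their titles, and the titles were followed.

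In endometriosis, endometrial tissue lives outside the uterus, commonly on the peritoneum, where it meets macrophages, lymphocytes and fat that the uterine lining does not. The mouse endometrium is built of luminal epithelium, glands, stroma and immune cells, among them a large uterine natural killer population, inside a smooth muscle wall. The glands depend on the transcription factor Foxa2 and secrete proteases and growth regulators into the lumen. In bulk tissue, fewer cells of a type and less RNA per cell cannot be told apart.

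Levels are given as log2 signal minus the array's 75th percentile, so that 0 is the brightness of the 75th percentile itself and strongly negative values are near background. The 75th percentile signal was 488.3 to 716.8 on 5 of the 6 arrays and 239.6 on uterus replicate 1, and 53.2% to 72.9% of probes were well above background. Arrays correlated at 0.940 to 0.950 among lesions, 0.926 to 0.958 among uteri and 0.919 to 0.958 between the groups. The median difference over the 33455 features tested was -0.07, and 43.8% of them had a difference above 0. Lesion replicate 2 had the highest level for most fat and lymphocyte genes, and uterus replicate 1 had low gland genes. Both are described with the results they touch.

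Lesions and uterus differed at 3 genes past the threshold (limma, Benjamini-Hochberg adjusted p under 0.05): Grem1 and Scd1 rose in lesions and Cyp3a57 fell. These were 0.00598% of features for lesions higher, 0.00299% for lesions lower and 0.00897% in either direction. At an adjusted p under 0.1 there were 74 features, 45 higher and 29 lower, and 3953 features (11.8%) had an unadjusted p under 0.05, 1516 with lesions higher (4.53%) and 2437 with lesions lower (7.28%). In 1737 features (5.19%) all 3 lesion values lay above all 3 uterus values, and in 3054 (9.13%) all lay below. With 3 arrays against 3, an exact permutation test cannot go below 0.1, so none is given for single genes.

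The promoter sequences of the called genes are shown first, because these are the genes that passed the threshold. The 250 bases before the annotated start come from RefSeq (GRCm38.p6), which matched Grem1, Cyp3a57 and the paralogue Cyp3a59, and not Scd1. Capitals mark the hexamer AGGTCA recognised by many nuclear receptors and the CCAAT box, on either strand. The Grem1 window is chr2:113758649-113758898, minus strand. The Cyp3a57 window is chr5:145345019-145345268 and that of Cyp3a59 chr5:146079008-146079257, both on the plus strand.
Grem1: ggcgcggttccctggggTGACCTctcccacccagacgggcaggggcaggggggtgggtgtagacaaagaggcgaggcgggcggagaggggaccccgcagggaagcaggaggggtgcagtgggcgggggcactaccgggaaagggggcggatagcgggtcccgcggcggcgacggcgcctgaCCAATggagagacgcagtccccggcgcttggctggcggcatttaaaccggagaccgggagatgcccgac
Cyp3a57: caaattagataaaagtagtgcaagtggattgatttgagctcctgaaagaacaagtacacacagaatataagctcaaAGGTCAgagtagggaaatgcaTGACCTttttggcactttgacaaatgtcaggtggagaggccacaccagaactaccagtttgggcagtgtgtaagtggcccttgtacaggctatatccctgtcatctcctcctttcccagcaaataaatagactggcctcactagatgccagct
Cyp3a59: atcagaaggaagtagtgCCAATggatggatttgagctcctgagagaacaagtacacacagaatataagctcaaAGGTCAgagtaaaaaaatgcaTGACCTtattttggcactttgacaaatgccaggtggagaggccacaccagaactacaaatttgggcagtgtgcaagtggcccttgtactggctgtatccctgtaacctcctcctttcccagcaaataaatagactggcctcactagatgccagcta

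Both Cyp3a windows held the hexamer once on each strand, at -174 and -153 in Cyp3a57 and at -177 and -156 in Cyp3a59. Over the full windows of 300 bases, from 250 before to 50 after the start, the 2 genes were identical at 92.6% of 297 aligned bases. Grem1 held the hexamer at -233 and a CCAAT box at -69. Of all 32851 windows of 300 bases, 16.3% held AGGTCA and 37.4% held CCAAT on either strand, and both motifs were added after the values were seen. None of the 3 windows held the palindromic oestrogen response element, GGTCA and TGACC with 3 bases between them, which 0.0700% of all windows hold. Nor did they hold the DR1 element, a direct repeat of AGGTCA with 1 base between (0.0396%), the AP-1 site TGANTCA (7.81%), the E2F sites TTTCCCGC (1.07%) and TTTGGCGC (0.514%), or the CHR element TTTGAA (17.9%).

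Grem1 encodes a secreted antagonist of bone morphogenetic proteins. Its level was -1.79, -1.06 and -2.54 in lesions 1 to 3 and -5.63, -6.68 and -6.16 in uterus 1 to 3. The groups were far apart, and the probe was well above background on all 3 lesion arrays and on none of the uterus arrays. Against the lowest signal called above background, Grem1 was at least 4.78-fold higher in lesions (measured difference 4.36 ± 0.45, SE, limma adjusted p = 0.00312). In PRCre eutopic endometrium it was as low as in the uterus, at -6.23 ± 0.63 (SD, n = 3). Within the slides that held both groups the Grem1 difference was 3.62 (slide 1) and 5.25 (slide 2). The size of a gene this dim in uterus depends on how background is treated: the Grem1 difference was 1.47 after normexp of the median signal and 1.71 with a common floor under all arrays, both smaller than the bound above. The call was lost under both (limma adjusted p = 0.0534 and 0.0846) and with only the 6 arrays in the fit (0.124).

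Scd1, the stearoyl-CoA desaturase that makes monounsaturated fatty acids, read 2.37, 3.69 and 0.98 in lesions and -2.52, -1.71 and -1.85 in uterus. It was well above background on all 6 arrays, and the lowest lesion lay above the highest uterus. The difference of 4.37 ± 0.60 is a 20.7-fold rise (limma adjusted p = 0.0403). Of its relatives, Scd2 differed by 0.00 ± 0.40, Scd3 by -0.50 ± 0.24 and Scd4 by 0.26 ± 0.22, all with adjusted p of 0.435 or more. These 3 were looked up after the values were seen. The Scd1 call was the least stable of the 3. It was lost with slide as a block (0.056), with no filter on dim probes (0.05), with only the 6 arrays (0.337), and without uterus replicate 2 (0.0704), uterus replicate 3 (0.105), lesion replicate 1 (0.125) or lesion replicate 2 (0.0698), while its difference was 3.66 to 5.05 under all alternatives fitted. Within slide 1 the Scd1 difference was 2.83 and within slide 2 it was 4.74.

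Cyp3a57 belongs to the cytochrome P450 3A family, best known for steroid and drug oxidation in the liver and gut. It read -2.19, -2.50 and -1.85 in uterus and -7.94, -6.94 and -6.86 in lesions. All 3 uterus arrays and no lesion array were well above background, so it was at least 7.22-fold lower in lesions (measured difference -5.07 ± 0.61, limma adjusted p = 0.0109). Cyp3a59 ran in parallel without passing the threshold, at -3.69, -3.99 and -2.94 in uterus and -7.78, -6.74 and -6.70 in lesions (-3.53 ± 0.55, adjusted p = 0.0564). Cyp3a25, looked up after the values were seen, differed by -3.87 ± 0.81 (0.101), and Cyp3a11 by 0.58 ± 0.41 (0.634). Family members this alike can share the signal of one probe, and whether they did was not tested. Eutopic endometrium lay between, at -4.89 ± 0.59 for Cyp3a57 and -5.82 ± 0.58 for Cyp3a59 (SD, n = 3). The Cyp3a57 difference was -1.98 after normexp and -1.33 with the common floor, both smaller than the bound above, and that of Cyp3a59 was -1.21 and -0.19. Cyp3a25 differed by -1.48 and -0.42 under the same 2 settings. The Cyp3a57 call was lost with only the 6 arrays (limma adjusted p = 0.0913), with the common floor (0.0985) and without uterus replicate 3 (0.0786). Within slide 1 the Cyp3a57 difference was -5.01 and within slide 2 it was -4.94.

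The number of calls moved with single arrays. Without uterus replicate 1, 10 features were called higher and 22 lower. Without uterus replicate 2 the counts were 1 and 2, and without uterus replicate 3 they were 1 and 0. Without lesion replicate 1 they were 2 and 3, without lesion replicate 2 they were 4 and 1, and without lesion replicate 3 they were 54 and 12. The share of higher calls also turned in the normexp alternative, which changes the signal column and the background step together: 43 higher and 94 lower features were called, against 33 and 9 after quantile normalization and 28 and 8 after median scaling.

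To describe the change beyond the 3 called genes, 15 genes were named in each direction: those called without overlap of the groups, then those of smallest p. The 15 higher genes were Scd1, Grem1, Cryaa, Apoc1, Plin1, Sfrp1, Il33, Orm2, Wfdc21, Lpl, Wdr92, Dpep2, Slc7a10, Adig and Orm1, with differences of 1.33 to 5.93 and limma adjusted p of 0.00312 to 0.0593. The 15 lower genes were Cyp3a57, Cyp3a59, 9430065F17Rik, Xpnpep2, Akr1cl, Tmprss11a, Wfdc3, 9530014B07Rik, Skint2, Foxa2, Mia, Pcdh11x, 4930503H13Rik, Scgb3a1 and Fam228b, with differences of -7.0 to -1.37 and adjusted p of 0.0109 to 0.0923. The groups did not overlap in any of these genes. The rule asked for this only of the called genes, but choice by smallest p favours it. In 7 of the 15 higher genes the uterus was not well above background on any array, and with the common floor their differences were 1.59 to 3.62, so each "at least" fold, here and below, holds only against the per-array background level.

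**Figure D1:**
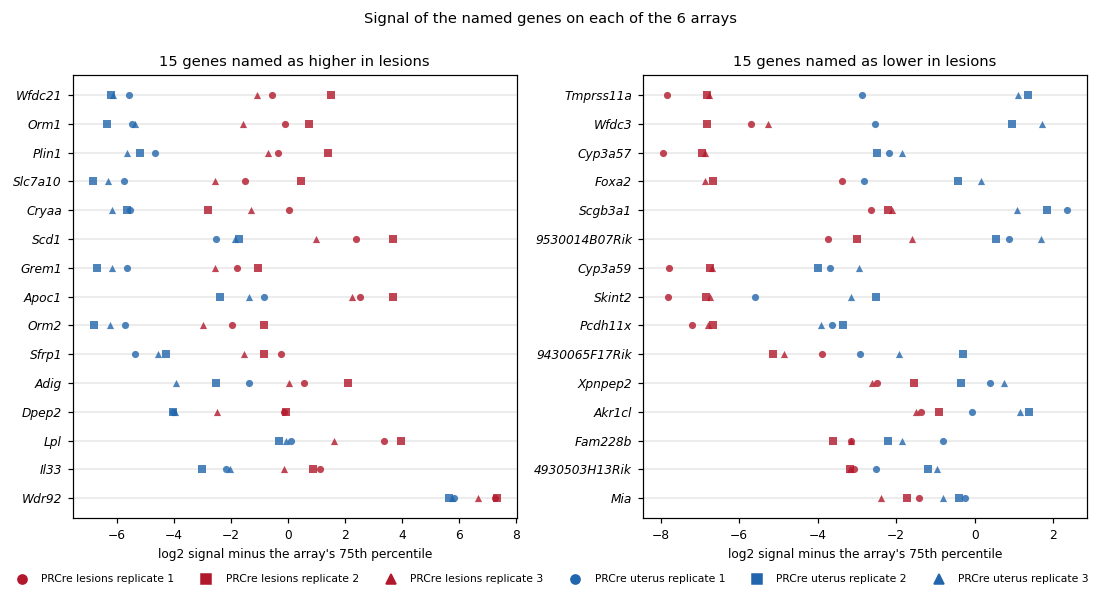
Signal of the 15 genes named as higher (left) and 15 named as lower (right) in PRCre lesions, in log2 units relative to each array's 75th percentile. Red symbols are the 3 lesion arrays and blue the 3 uterus arrays, with the replicate given by the shape; Wfdc21 and Tmprss11a have the widest gaps between group means, and uterus replicate 1 (blue circles) lies nearest the lesions for Tmprss11a, Wfdc3, Foxa2 and Skint2.

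Of the 15 higher genes, Scd1, Plin1 and Lpl are on the adipocyte list. Plin1, which coats the lipid droplets of adipocytes, read -0.35, 1.40 and -0.69 in lesions and -4.67, -5.17 and -5.62 in uterus. No uterus array had it well above background, and it was at least 18.1-fold higher in lesions (measured difference 5.27 ± 0.82, limma adjusted p = 0.0564). Lpl, the lipase that releases fatty acids from circulating lipoproteins, read 3.38, 3.95 and 1.63 in lesions and 0.11, -0.32 and -0.08 in uterus (3.08 ± 0.52, 0.0564). Of genes not on that list, Adig, a small membrane protein of adipocytes, differed by 3.49 ± 0.60 (0.0564). Slc7a10, an amino acid transporter of white adipocytes, differed by 5.09 ± 0.88 (0.0564) and was at least 7.27-fold higher.

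The adipocyte list held 31 genes, of which 30 were tested and Ucp1 was not, being too dim. Of these, 1 (Scd1) was called and 29 were not, 27 had differences above 0 (against 43.8% of all features), and in 19 of 30 all lesion values lay above all uterus values, where 5.19% of all features did so. No member lay below in all arrays. The median difference was 1.88, against -0.07 over all features. Cidec, a droplet fusion protein, read 3.44, 5.49 and 3.07 in lesions against -3.44, -3.73 and -3.17 in uterus. Fabp4, the fatty acid carrier of adipocytes, read 4.78, 6.49 and 3.51 against -1.64, -1.95 and -1.71. The lesion values of both were several log2 units above every uterus value, with lesion replicate 2 highest.

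The adipokine Adipoq read 3.03, 4.60 and 1.77 in lesions and -3.76, -5.22 and -3.49 in uterus. Its difference was 7.29 ± 1.54 with a limma adjusted p of 0.104. Cidec differed by 7.45 ± 1.48 (0.0923), Fabp4 by 6.69 ± 1.26 (0.0766), Retn (resistin) by 6.65 ± 1.39 (0.101) and Cfd, the complement protease adipsin, by 7.22 ± 1.64 (0.138). These sizes exceed that of Scd1, but their standard errors were larger. In the fatty acid branch, Acsl1 differed by 3.18 ± 0.60 (0.0766) and Car3, an adipocyte carbonic anhydrase, by 6.26 ± 1.25 (0.0923), and the fat and heat-regulating receptor gene Adrb3 by 4.10 ± 0.73 (0.0625). Pparg, the master regulator of fat cell formation, differed less, by 1.61 ± 0.59 (0.306), and its groups overlapped. Lep, another defining marker, showed no gap, at -2.19, -2.14 and -2.75 in lesions and -2.31, -1.86 and -2.55 in uterus.

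The summed signal of the adipocyte list, in units of the array's 75th percentile, was 192 to 643 in lesions, 58.4 to 86.2 in uterus and 81.7 to 120 in eutopic endometrium. Lesion replicate 2 had the highest value of the 6 arrays for 24 of the 30 genes. Without it the median was 1.40, and without uterus replicate 1 it was 2.05. Counts of genes above every uterus value cannot fall when an array is left out: they were 19 and 22 of 30, where 8.14% and 11.1% of all features lay above. Mesothelial markers, which mark the peritoneal lining, overlapped between the groups. Their summed signal was 26.9 to 58.1 in lesions and 32.9 to 43.7 in uterus. Of 14 tested genes, 0 lay above and 2 (14.3%) below in all arrays, where 5.19% and 9.13% of all features did so. The part of attached fat in the adipocyte values was not tested. Of the 21 adipocyte genes with a promoter window, 0 held the DR1 element. Only 0.0396% of all windows hold it, so a set this small would rarely hold 1, and nothing is read from the count.

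**Figure D2:**
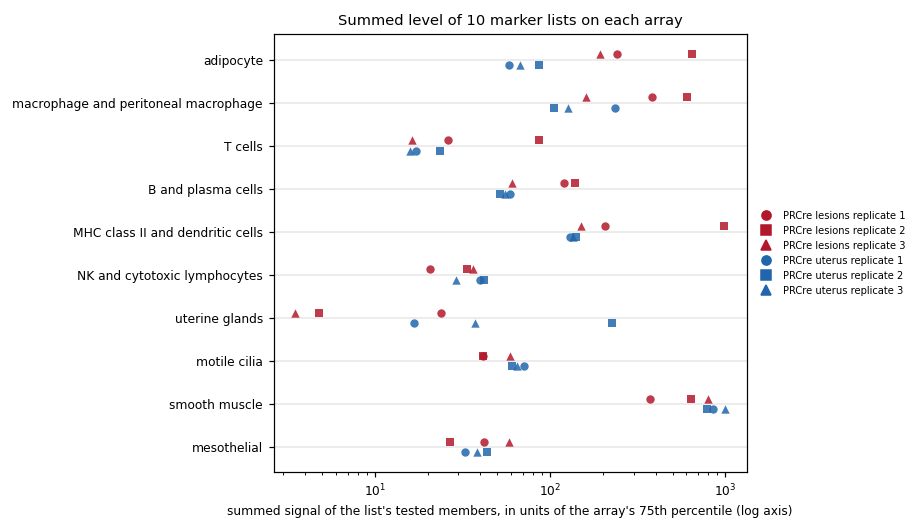
Summed signal of 10 marker lists on each of the 6 arrays, in units of the array's 75th percentile on a log axis, with lesions in red, uterus in blue and the replicate given by the shape. The adipocyte sums of lesions (192 to 643) lie apart from those of uterus (58.4 to 86.2), lesion replicate 2 is highest for fat, T cell, B cell and MHC class II genes, and gland sums vary most among the uterus arrays (16.8 to 225).

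Acute-phase proteins, normally made by the liver in inflammation and also by fat and activated macrophages, stood beside the fat genes. Orm1 read -0.09, 0.73 and -1.58 in lesions and -5.45, -6.33 and -5.34 in uterus, and was at least 13.4-fold higher in lesions (measured difference 5.39 ± 0.94, limma adjusted p = 0.0593). Orm2 read -1.94, -0.83 and -2.98 against -5.69, -6.78 and -6.22, at least 4.41-fold higher (4.31 ± 0.72, 0.0564). Neither was well above background in any uterus array. Saa3, a serum amyloid made outside the liver, read 4.8, 7.01 and 4.06 in lesions and 0.06, -2.42 and -0.60 in uterus (6.28 ± 1.48, 0.154). Saa2 lay the other way, at -4.54, -3.97 and -3.05 against -2.14, -1.22 and -0.85 (-2.45 ± 0.60, 0.164). Of 18 tested acute-phase and innate defence genes, 0 were called and the median was 1.16. In all arrays 7 (38.9%) lay above and 1 (5.56%) below, where 5.19% and 9.13% of all features did so.

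Il33, an alarmin of the interleukin-1 family held in the nucleus of stromal and endothelial cells, read 1.13, 0.87 and -0.12 in lesions and -2.18, -3.02 and -2.03 in uterus (3.04 ± 0.50, limma adjusted p = 0.0564). It had the smallest p of the 29 interleukin-1 and interleukin-6 family genes tested. Of these, 6 (20.7%) lay above in all arrays and 0 below, where 5.19% and 9.13% of all features did so. Their median was 0.32, and it was 0.73 without uterus replicate 1, 0.55 without lesion replicate 3 and 0.61 with array weights. Wfdc21, a small secreted whey acidic protein, had the widest gap of the higher set, at -0.54, 1.5 and -1.07 against -5.58, -6.18 and -6.13, at least 16.2-fold (5.93 ± 0.99, 0.0564). Apoc1, an apolipoprotein of liver and macrophages, read 2.52, 3.67 and 2.26 against -0.83, -2.37 and -1.35 (4.33 ± 0.67, 0.0564). Dpep2, a membrane dipeptidase found in leukocytes, differed by 3.11 ± 0.53 (0.0564). Cryaa, the lens chaperone alpha-A crystallin, was at least 6.54-fold higher (4.43 ± 0.65, 0.0564), highest in lesion replicate 1 at 0.04 and lowest in replicate 2 at -2.78. Wdr92 was bright in every array, at 7.25, 7.31 and 6.67 against 5.83, 5.65 and 5.76, a 2.52-fold difference (1.33 ± 0.23, 0.0564).

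Sfrp1, a secreted Wnt antagonist, read -0.24, -0.85 and -1.52 in lesions and -5.37, -4.28 and -4.56 in uterus (3.87 ± 0.63, limma adjusted p = 0.0564). Grem1 and Sfrp1 were thus both secreted antagonists of growth factor pathways. The lists of those pathways, given below, include these 2 genes, and their parts differed. TGF-beta, activin and BMP ligands had a median of 0.55, with 4 of 15 above and 1 below in all arrays. Their receptors, antagonists and feedback genes had a median of 0.16, with 1 of 22 above and 2 below. Wnt ligands had a median of -0.34, with 0 of 15 above and 1 below. Wnt receptors, inhibitors and targets had a median of 0.19, with 5 of 21 above and 0 below. The 36 tested Wnt genes had a median of 0.12, with 5 (13.9%) above and 1 (2.78%) below in all arrays and 0 called. Over all features 5.19% lay above and 9.13% below. Lgr4, a receptor for R-spondins, differed by 1.68 ± 0.41 (0.164), Sfrp4 by 1.30 ± 0.39 (0.240) and the receptor Fzd4 by 1.00 ± 0.32 (0.262), each without overlap. Of the 37 TGF-beta, activin and BMP genes, 5 (13.5%) lay above, 3 (8.11%) lay below and Grem1 alone was called. Their median was 0.19, and it was -0.04 after normexp and -0.08 without lesion replicate 1. The ligand Tgfb1 differed by 0.93 ± 0.33 (0.292).

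Macrophage genes had mostly positive differences, none past the threshold. Of 41 tested, 0 were called, 37 had differences above 0 and the median was 0.97. In all arrays 11 (26.8%) lay above and 1 (2.44%) below, where 5.19% and 9.13% of all features did so. Retnla, a product of alternatively activated macrophages, read 2.74, 2.33 and 2.42 in lesions and -0.22, -0.86 and -1.31 in uterus (3.29 ± 0.59, limma adjusted p = 0.0656). Clec4e, the receptor Mincle, was at least 20.4-fold higher, at 1.13, 2.49 and -2.74 against -5.05, -6.93 and -5.60 (6.15 ± 1.16, 0.0766). Retnla was even across lesions and Clec4e was not. The scavenger receptor Marco differed by 4.27 ± 0.98 (0.143) and the macrophage secretory protein Cd5l by 2.43 ± 0.51 (0.101).

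Among genes of large peritoneal macrophages, coagulation factor F10 differed by 5.98 ± 1.16 (limma adjusted p = 0.0923), with uterus replicate 1 missing as an outlier spot, while F5 lay lower in lesions by -1.58 ± 0.53 (0.279). The pan-macrophage receptor Csf1r read 5.34, 6.47 and 4.18 in lesions and 4.06, 3.91 and 4.12 in uterus (1.30 ± 0.47, 0.297). Lesion replicate 3 barely exceeded the uterus. Summed macrophage signal was 161 to 606 in lesions and 106 to 235 in uterus, so the groups overlapped. Without lesion replicate 2 the macrophage median was 0.65, and 3 genes (7.32%) lay below, fewer than the 11.6% of all features.

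Of 25 B and plasma cell genes, 9 (36%) lay above and 1 (4%) below in all arrays, where 5.19% and 9.13% of all features did so. Of the 25, 0 were called, and their median was 1.41. That median was 0.39 after normexp and 0.26 with the filter on all 18 arrays. Ms4a1 (CD20) read -0.84, 0.57 and -2.47 in lesions and -3.03, -6.85 and -6.24 in uterus (4.46 ± 0.96, limma adjusted p = 0.112). Cxcr5, the receptor that brings B cells to follicles, was at least 2.32-fold higher (3.54 ± 0.72, 0.0976), and Cd79b, a part of the B cell receptor, differed by 2.15 ± 0.48 (0.128). The Cxcr5 difference was 0.91 after normexp and 0.70 with the common floor, both smaller than that bound. Under the same settings Ms4a1 differed by 2.09 and 2.43, and Cd79b by 1.96 and 2.15. Jchain, which joins secreted immunoglobulins, read 4.83, 5.83 and 3.32 against 3.24, 2.40 and 2.46 (1.96 ± 1.06, 0.502).

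T cell genes had a median of 1.12, with 25 of 26 differences above 0 and 0 called. In all arrays 6 (23.1%) lay above and 0 below, where 5.19% and 9.13% of all features did so. Cd3d, a chain of the T cell receptor complex, read 0.22, 3.51 and -0.46 in lesions and -0.23, -1.56 and -0.75 in uterus (1.94 ± 0.76, limma adjusted p = 0.329). Only replicate 2 of the lesions stood clear of the uterus. Cd6 differed by 2.69 ± 0.87 (0.264) and Il7r by 2.36 ± 0.68 (0.238). The antigen-presentation gene Cd74 read 4.98, 7.40 and 4.68 against 3.80, 4.25 and 4.42 (1.53 ± 0.59, 0.323).

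Lesion replicate 2 was the highest of the 6 arrays for 23 of 26 T cell genes, 20 of 25 B and plasma cell genes and 17 of 20 MHC class II and dendritic cell genes. Without it the medians were 0.34 for T cells, 0.63 for B and plasma cells and 0.18 for MHC class II and dendritic cells. Over all arrays the median of this last list was 0.95, with 3 of 20 (15%) above, where 5.19% of all features lay above. The summed MHC class II signal of lesion replicate 2 was 978, against 206 and 150 in the other lesions and 130 to 141 in uterus. Its summed T cell signal was 86.6, against 26.3 and 16.3 in the other lesions and 15.9 to 23.6 in uterus. That pool also had the highest adipocyte signal, and the part of lymphoid or fat tissue in it was not tested.

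Of 45 chemokine genes, 11 (24.4%) lay above and 2 (4.44%) below in all arrays, where 5.19% and 9.13% of all features did so, and 0 were called. Their median was 1.14, and it was 0.48 without lesion replicate 2, 0.42 after normexp and 0.45 with the filter on all 18 arrays. Ccr7, which guides dendritic and T cells to lymphoid tissue, read -0.48, 0.41 and -1.86 in lesions and -3.82, -3.45 and -4.34 in uterus (3.22 ± 0.58, limma adjusted p = 0.0672). Cxcl13, the ligand of Cxcr5, was at least 7.87-fold higher, at -0.96, 0.66 and -2.94 against -3.63, -6.61 and -6.10 (4.37 ± 1.05, 0.157). Ccr6 was at least 6.36-fold higher (3.76 ± 0.88, 0.150). Ccl19, a ligand of Ccr7, differed by 3.12 ± 0.90 (0.238), and the eosinophil chemokine Ccl24 by 2.71 ± 0.60 (0.125). For both pairs, receptor and ligand lay above the uterus in all lesion arrays. Complement genes had a median of 0.77, with 5 of 26 (19.2%) above and 0 below. C3, which the uterine epithelium also makes under oestrogen, read 8.87, 9.19 and 8.99 in lesions and 7.94, 6.19 and 5.92 in uterus (2.33 ± 0.61, 0.202), and C4b differed by 2.00 ± 0.52 (0.197).

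Gland genes were the group furthest below the uterus. The 11 tested had a median of -2.50, with 0 differences above 0, 4 below in all arrays where 9.13% of all features did so, and 0 called. Foxa2, the factor that glands need to form, read -2.83, -0.43 and 0.15 in uterus and -3.39, -6.66 and -6.88 in lesions (-4.61 ± 0.88, limma adjusted p = 0.0766). It was well above background on every uterus array and on 1 lesion array, replicate 1. Wfdc3, a secreted whey acidic protein, read -2.53, 0.96 and 1.71 in uterus and -5.69, -6.82 and -5.26 in lesions, at least 33.4-fold lower (-5.97 ± 1.04, 0.0593). Sox9, a gland progenitor factor, differed by -1.53 ± 0.51 (0.279) and the gland chemokine Cxcl15 by -2.87 ± 1.1 (0.320). Part of these gaps depends on how background is treated. Cxcl15 differed by -1.21 after normexp and -0.41 with the common floor, and Foxa2 by -2.49 and -2.43. Under the same settings Wfdc3 differed by -3.55 and -3.55, and Sox9 by -1.33 and -1.53.

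The secretory products of glands varied too much between uterus arrays for a comparison. The implantation protease Prss29 read -5.35, 6.94 and 3.12 in uterus and 3.12, -4.86 and -2.19 in lesions (-2.88 ± 3.44, limma adjusted p = 0.828). Prss28 differed by -2.50 ± 2.50 (0.775), and the trypsin inhibitor Spink1, at -2.94, 5.88 and 3.64 in uterus, by -5.38 ± 3.21 (0.555). Uterus replicate 1 was the low array for all 3. Summed gland signal was 16.8, 225 and 37.2 in the uterus arrays and 24.0, 4.78 and 3.51 in the lesion arrays, so lesion replicate 1 exceeded uterus replicate 1. Without uterus replicate 1, 7 of 11 gland genes lay below and the median was -2.69, and 16.8% of all features lay below. Without lesion replicate 2, 5 of 11 lay below, where 11.6% of all features did so, and the median was -1.59.

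The other genes of the lower set were of several kinds. Tmprss11a, a membrane serine protease, read -2.87, 1.35 and 1.11 in uterus and -7.85, -6.81 and -6.76 in lesions, at least 29.7-fold lower (-7.0 ± 1.20, limma adjusted p = 0.0564). Scgb3a1, a secretoglobin of airway and other ducts, read 2.34, 1.83 and 1.08 against -2.63, -2.21 and -2.11, a 16.8-fold gap with both groups well above background (-4.07 ± 0.79, 0.0879). Xpnpep2, an aminopeptidase, read 0.39, -0.34 and 0.75 against -2.48, -1.54 and -2.62 (-2.48 ± 0.41, 0.0564). Akr1cl, an aldo-keto reductase, differed by -2.09 ± 0.35 (0.0564), and Mia, a small secreted protein of cartilage and melanoma, by -1.37 ± 0.26 (0.0766). Skint2, an immunoglobulin-family protein of epithelium, and the protocadherin Pcdh11x differed by -3.38 ± 0.61 (0.0766) and -3.25 ± 0.62 (0.0824). Both were well above background on 2 uterus arrays and no lesion array, and with the common floor they differed by -0.45 and -0.05. The 4 remaining were the uncharacterised or little-known transcripts 9430065F17Rik, 9530014B07Rik, 4930503H13Rik and Fam228b, at -2.92, -3.81, -1.58 and -1.68.

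Of 15 tested genes of motile cilia, 6 (40%) lay below and 1 (6.67%) above in all arrays, where 9.13% and 5.19% of all features did so. The cilia median was -0.57 (-0.25 with the common floor) and 0 were called. Foxj1, the master factor of motile cilia, read -3.25, -3.01 and -6.27 in uterus and was well above background on 2 uterus arrays and no lesion array (-2.29 ± 0.94, limma adjusted p = 0.353). With the common floor Foxj1 differed by -0.25. Of 24 natural killer and cytotoxic genes, 4 lay below, where 9.13% of all features did so, and 0 above, 7 had differences above 0, the median was -0.29 and 0 were called. These 4 were the receptors Klra4 (-2.36 ± 0.49, 0.101) and Klra8 (-2.04 ± 0.59, 0.238), the chemokine Xcl1 (-1.42 ± 0.55, 0.327) and the receptor Ncr1 (-1.01 ± 0.50, 0.455). Klra4 read 2.86, 1.93 and 1.59 in uterus and -0.90, -0.16 and 0.34 in lesions. T cell and natural killer lists thus had medians of opposite sign. Members of the Klra family are near-identical, so their probes may share signal, which was not tested.

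Genes of uterine identity, hormone response and muscle gave smaller or no gaps. Esr1 read 3.47, 2.30 and 3.83 in lesions and 3.62, 3.72 and 3.73 in uterus (-0.49 ± 0.33, limma adjusted p = 0.603), and its 6 probes differed by -0.25 to -0.58. Esr2 read 2.52, 2.38 and 2.44 against 2.82, 2.73 and 2.51 (-0.24 ± 0.20, 0.706), by a bright probe, and its second probe was not well above background. The bright probe averaged 2.45 in ERBOE uterus and 2.19 in ERBOE lesions, against 2.69 and 2.45 in PRCre. It thus did not show the overexpression described for ERBOE mice, and why was not tested. Pgr read 0.78, -0.10 and 2.03 against 0.67, 2.80 and 2.65 (-1.14 ± 0.59, 0.478). All 3 receptors overlapped between groups or missed the threshold. The coactivator Ncoa3 differed by 0.81 ± 0.20 (0.182), without overlap. The median of the 19 receptors and cofactors was -0.02.

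The oestrogen-induced uterine genes had a median of 0.20 and differed widely between pools collected at estrus. Of 27, 2 (7.41%) lay above and 1 (3.7%) below, where 5.19% and 9.13% of all features did so. Ltf (lactoferrin) read 2.62, 7.01 and 7.01 in lesions and 5.13, 2.46 and 1.56 in uterus (2.49 ± 1.64, limma adjusted p = 0.600). Lcn2 read 4.75, 7.62 and 8.6 against 6.69, 5.27 and 2.45 (2.19 ± 1.81, 0.703). Lesion replicate 1 was the low lesion and uterus replicate 1 the high uterus for both. Positional genes had a median of -0.51, with 1 of 19 (5.26%) above, near the share of all features, and 0 below. The defining Hoxa10 overlapped, at 4.11, 2.36 and 3.57 against 2.63, 3.54 and 4.06. Hoxd11 differed by -1.35 ± 0.56 (0.358) and Hoxc8 by 0.73 ± 0.37 (0.475).

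Smooth muscle genes were bright in both groups. Their summed signal was 372 to 797 against 791 to 999 in uterus, and the median was -0.36. In all arrays 1 of 24 (4.17%) lay below, where 9.13% of all features did so. Tagln read 6.80, 8.17 and 8.01 in lesions and 8.95, 8.02 and 8.4 in uterus (-0.80 ± 0.42, limma adjusted p = 0.491), Cnn1 differed by -0.82 ± 0.50 (0.562), and Tpm1 by -0.67 ± 0.35 (0.485). Epithelial identity genes had a median of 0.40, with 2 of 34 (5.88%) above, near the 5.19% of all features, and 0 below. That count depended on single arrays. Without uterus replicate 1, 9 (26.5%) lay above, against 11.1% of all features. Without lesion replicate 2, 10 (29.4%) lay above, against 8.14%. The epithelial median ranged from 0.00 without lesion replicate 3 to 0.55 without lesion replicate 2. Of matrix and metabolic genes, Spp1 (osteopontin) differed by 3.11 ± 0.99 (0.257), the laminin chain Lama1 by 2.55 ± 0.73 (0.233), the fatty acid synthase Fasn by 1.51 ± 0.47 (0.252) and Star, the cholesterol carrier of steroid synthesis, by 1.07 ± 0.53 (0.456), all without overlap and none past the threshold. The collagen list had a median of 0.17, which ranged from -0.36 without uterus replicate 1 to 0.54 without uterus replicate 2.

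**Figure D3:**
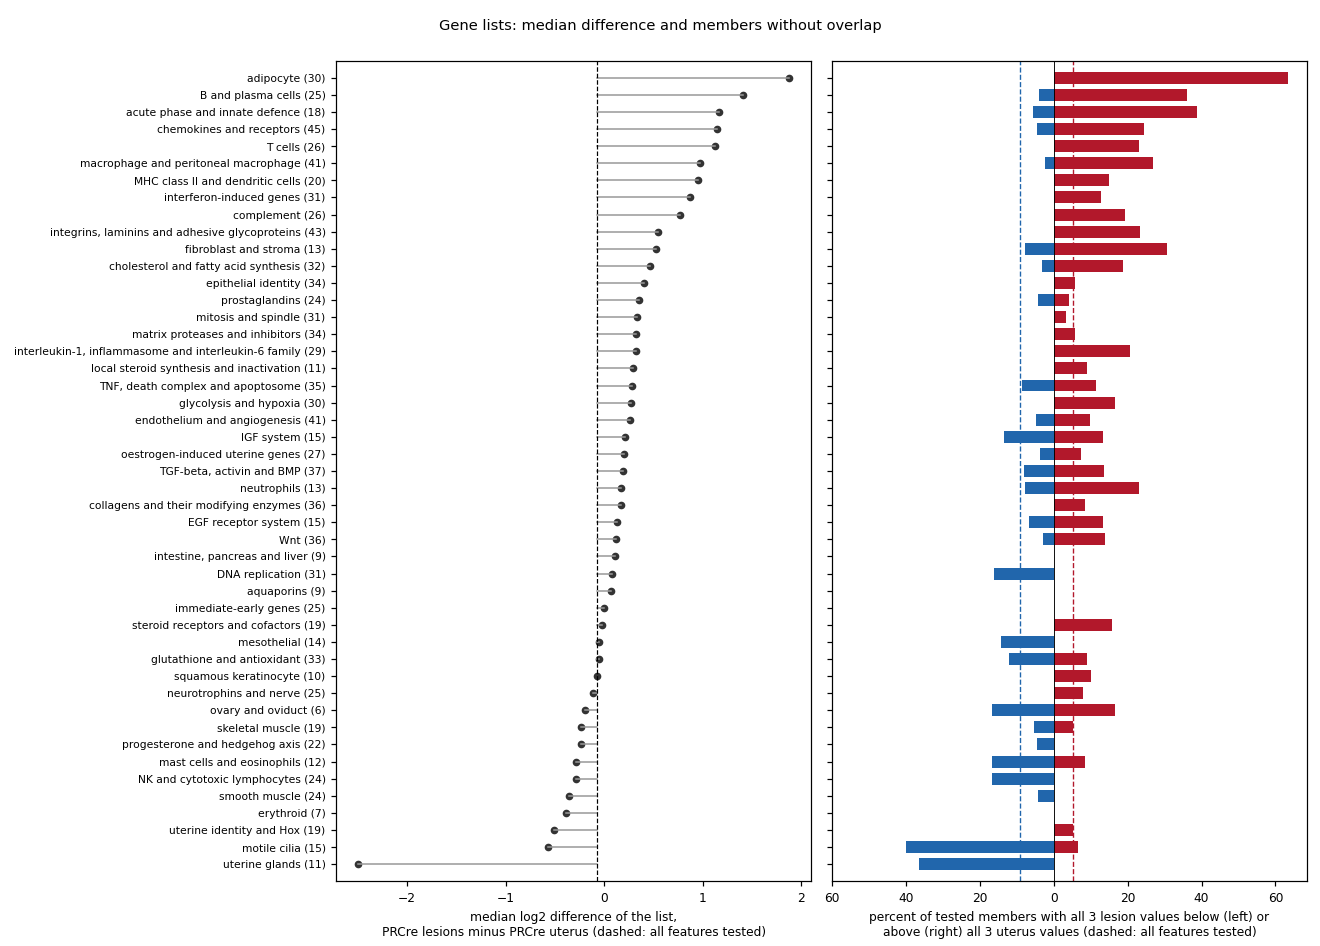
Left, median log2 difference (PRCre lesions minus PRCre uterus) of each of the 47 gene lists, with the number of tested genes in brackets and the median over all features (-0.07) dashed. Right, percent of each list's tested genes whose 3 lesion values all lie below (blue) or above (red) the 3 uterus values, with the shares over all features (9.13% and 5.19%) dashed; the adipocyte list has the highest median (1.88) and the gland list the lowest (-2.50).

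ERBOE lesions and ERBOE uterus share no array with the PRCre groups, so the named genes could be read again in them, although the fit over all 18 arrays lends both comparisons the same error estimate. In that comparison 316 features were called higher (0.945%) and 95 lower (0.284%). All 15 genes named as higher were higher there, by 1.40 to 8.49, and all 15 passed the threshold, with limma adjusted p of 4.93e-05 to 0.0159. Grem1 rose by 5.98 ± 0.45 and Scd1 by 6.34 ± 0.60 in ERBOE lesions. Of the 15 genes named as lower, 14 were lower in ERBOE lesions, and 2 passed the threshold, Xpnpep2 (-1.89 ± 0.41, adjusted p = 0.0387) and Pcdh11x (-2.96 ± 0.62, 0.0322). Cyp3a57 differed by -2.50 ± 0.61 (0.0626) and Cyp3a59 by -0.49 ± 0.55 (0.834). Skint2 alone had the other sign, at 0.31 ± 0.61 (0.936). Mean levels in ERBOE uterus were -6.04 for Cyp3a59, -6.86 for Skint2 and -4.53 for Wfdc3, against -3.54, -3.75 and 0.05 in PRCre uterus. Whether the level in ERBOE uterus bears on the smaller differences in ERBOE was not tested. Not all of the 15 genes were lower in ERBOE uterus than in PRCre uterus. Xpnpep2 was at 0.29 in ERBOE uterus and 0.27 in PRCre uterus, and Foxa2 at -0.63 and -1.04.

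By list, 19 of 30 adipocyte genes passed the threshold as higher in ERBOE lesions, where 0.945% of all features did so. The list's median there was 2.98. Macrophage genes had 9 of 41 called higher and a median of 1.42, and acute-phase genes 5 of 18 and 2.57. For T cells 0 of 26 were called and the median was 0.89; for B and plasma cells it was 1 of 25 and 0.93. Gland genes had a median of -0.72 with 0 of 11 called and 6 of 11 below 0, where in PRCre all 11 were below. Over all features 0.945% were called higher and 0.284% lower. In lists this short 0 called is near those shares, so it sets neither T cell nor gland genes apart. The interferon-induced genes had a median of 0.87 in PRCre and -0.11 in ERBOE, and the epithelial genes 0.40 and -0.78. Summed interferon-induced signal was 614 in PRCre uterus replicate 1, above the PRCre lesions (192, 540 and 479). In PRCre 4 of 31 of these genes (12.9%) lay above in all arrays, where 5.19% of all features did. Without uterus replicate 1, 25 (80.6%) lay above, against 11.1% of all features, and the median was 1.38.

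**Figure D4:**
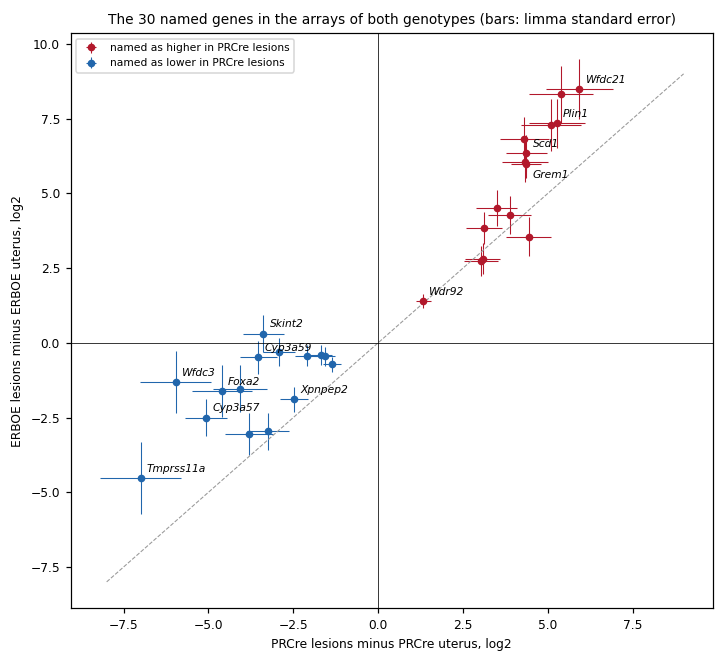
Log2 difference of lesions minus uterus for the 30 named genes in PRCre (x axis) and in ERBOE (y axis), which use separate arrays; bars are limma standard errors and the dashed line marks equal differences. The 15 genes named as higher (red) lie at 1.40 to 8.49 in ERBOE, and the 15 named as lower (blue) lie at -4.52 to 0.31, each nearer 0 than in PRCre, where they were chosen.

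The difference between the genotypes was tested directly, as PRCre lesions minus uterus less ERBOE lesions minus uterus. No feature passed (limma, 0 of 33455, 0%, smallest adjusted p 0.314), and 2271 had an unadjusted p under 0.05. Serpina3n, an acute-phase protease inhibitor, differed by 1.28 ± 0.72 in PRCre and 6.96 ± 0.72 in ERBOE (difference -5.68 ± 1.01, adjusted p = 0.314). It read -0.80, -0.54 and -2.35 in PRCre lesions and -3.61, -1.59 and -2.31 in PRCre uterus. Serpina3n means were 0.41 in ERBOE lesions and -6.55 in ERBOE uterus, against -1.23 and -2.51 in PRCre, so the uteri differed as well as the lesions. Lpar4, a lysophosphatidic acid receptor, differed by -1.09 ± 0.27 in PRCre and 1.06 ± 0.27 in ERBOE (0.314), and Tspan11, a tetraspanin, by -2.04 ± 0.47 and 1.47 ± 0.47 (0.323). For both, every PRCre lesion lay below every PRCre uterus. Lpar4 means were -0.48 in ERBOE lesions and -1.54 in ERBOE uterus, against -1.47 and -0.38 in PRCre. Those of Tspan11 were 0.84 and -0.64, against -0.57 and 1.47 in PRCre. Without uterus replicate 1, 2 features passed the test of the genotype difference, and without lesion replicate 3, 1 did.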

How the data were processed

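RNA of 18 pools was hybridised to 1-colour Agilent mouse arrays. Per the file headers, the authors' scanner files (Agilent Feature Extraction 11.0.1.1, grid built on mm9) hold spot intensity that was background-subtracted and not normalised between arrays. In the authors' value table, deposited alongside, log2 numbers are centred on each probe, by steps not given in the sources used here. Its columns correlated with centred scanner values at 0.9986 to 0.9994.

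Here control and outlier spots were left out, the log2 processed intensity minus the array's 75th percentile was taken, and spots of a probe were averaged. Probes well above background on at least 3 of 18 arrays were kept. RefSeq (GRCm38.p6) gave 32994 of 56605 probes a symbol, and the brightest probe stood for each symbol. The 33455 features (18014 with a symbol) were tested 2-sided in 1 limma model (limma 3.58.1, R 4.3.3) of 6 group means, with Benjamini-Hochberg adjustment over all features and a threshold of 0.05. The number of arrays limits the precision. "At least" folds set the bright group's mean against the lowest signal called above background on each array.

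Named were Esr1, Esr2, Pgr and 15 genes each way (called and without overlap, then filled by smallest p alone). Up to 6 genes of smallest p and the defining markers of each list were named too. So were up to 10 of the genotype difference, and other list members where those not passing are given. The comparison, lists and genes were chosen with earlier results of these data known. The planned normexp alternative used the median signal, since the files hold no mean signal. Deviations of same-numbered lesion and uterus arrays correlated at -0.01, 0.03 and 0.31, the last for arrays that share slide 1, so not every pair passed 0.1 and numbers were not taken as pairs. The fit was tested on simulated data. A gene that the naming rule covers is not reported here.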

Additional observations from a re-analysis of the deposited data

How the results depend on the processing

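The 3 calls rest on 3 pools a group and on the error shared by all 18 arrays: with only the arrays of the groups compared, 0 features were called higher and 0 lower (limma), with 2063 at an unadjusted p under 0.05. Features called higher and lower numbered 43 and 94 after normexp of the median signal, 33 and 9 after quantile normalization, 28 and 8 after median scaling, 23 and 9 with the filter on the 6 PRCre arrays, 7 and 3 when probes had to pass the filter on all 18 arrays, 31 and 14 under trend and robust variance, and 50 and 29 with array weights. No filter left 1 higher, a slide block gave 2 lower, and the replicate block, though the pairing was not borne out, gave 8 and 7. A common floor at -3.50, chosen after the data were seen because the scaled background differs between arrays, gave 8 higher and, for the genotype difference, 3. Leaving out each replicate gave 1 to 54 higher, 0 to 22 lower and 0 to 2 for the genotype difference. Of the 15 genes named as higher, 5 passed the filter on all 18 arrays and these 5 were called in ERBOE, and 12 to 15 without single replicates. Of the 15 named as lower it was 1 with no filter, 1 with only the arrays compared, 4 with the replicate block, 6 with array weights, 0 with the common floor and 0 to 2 without single replicates. Within slide 1 the difference of Esr1 was 0.10 and of Serpina3n -0.03, the only signs that turned among the 99 genes recomputed; the cause was not tested. The median over all features was -0.25 after normexp and 0.00 after quantile normalization. The medians of the adipocyte list (1.40 to 2.39), macrophage list (0.65 to 1.39) and gland list (-3.74 to -1.31) kept their sign in these ranges over 22 alternatives. Within slides 1 and 2 they were 1.31 and 2.46, 0.25 and 1.94, and -4.55 and -2.30.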
